A study of Mus musculus and Homo sapiens with 81 samples.

Results

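The constitutive proteasome subunits were the genes whose symbols start with Psma, Psmb, Psmc or Psmd followed by a number. The inducible subunits Psmb8, Psmb9 and Psmb10, symbols with any suffix, and rows averaging under 1 CPM (counts scaled to a common library total) were left out. The rule used symbols and mean levels only, and kept 34 genes in each cell line, of 23336 gene rows in the mouse table and 23227 in each human table. The members were Psma1 to Psma7 and Psmb1 to Psmb7, which form the alpha and beta rings of the 20S core. The others were Psmc1 to Psmc6, the ATPases of the 19S cap, and Psmd1 to Psmd14, grouped here as its non-ATPase subunits. Psma8 and Psmb11, the testis and thymus subunits, fell below the level filter. All 34 members passed the later filter on low counts in every line.

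The 26S proteasome degrades proteins marked with ubiquitin: the 19S cap binds and unfolds the substrate, and the barrel-shaped 20S core cuts it. The catalytic beta subunits are PSMB6 (beta-1), PSMB7 (beta-2) and PSMB5 (beta-5), and interferon induces PSMB9, PSMB10 and PSMB8, which can take their places to form the immunoproteasome that supplies peptides to MHC class I. The transcription factor NFE2L1 (NRF1) raises many subunit genes together when proteasome activity falls, through antioxidant response elements in their promoters.

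Polyadenylated RNA from 81 libraries in 30 groups was counted per gene. B16 mouse melanoma cells (42 libraries, 3 in each of 14 groups) carried the non-targeting guide Bro3 or the guide Ptpn2sg3, and were left 48 h with vehicle (PBS with bovine serum albumin, labelled NS), IFNb at 1000 U/mL, IFNg at 100 ng/mL, TNFa at 10 ng/mL, IFNbIFNg, IFNbTNFa or IFNgTNFa. The human lines A375 and MelJuSo (melanoma), A549 (lung cancer) and HT29 (colon cancer) carried the non-targeting guide Bro4 or Ptpn2sg3, and received vehicle or IFNg at the same dose and time (39 libraries in 16 groups of 2 or 3). PTPN2 is a phosphatase that dampens interferon signalling. The Ptpn2sg3 libraries are called Ptpn2-null here, after the labels; each genotype in each line was 1 guide, so the effect of a guide and that of the gene cannot be told apart. The labels do not say that replicates came from separate cultures, so p-values measure the spread between these libraries, which may be technical.

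Total counts per library were 3498860 to 6432517 in B16 and 4191317 to 9605776 in the human lines. Ptpn2 was at 44.7 to 61.9 CPM in B16 controls and 8.23 to 16.4 CPM in B16 null libraries, and its groups kept that order without overlap in A549, HT29 and MelJuSo. In A375 with vehicle the order went against the labels: the libraries labelled control held 11.9 to 12.1 CPM of PTPN2 and those labelled null 24.1 to 25.1 CPM. Any A375 direction below that uses vehicle libraries therefore rests on labels that PTPN2 contradicts. All 6 melanocyte markers were above 1 CPM in B16 and MelJuSo, but only MLANA, MITF and SOX10 of the 6 in A375; all 5 epithelial markers were above 1 CPM in A549 and HT29, and CDX2 and CDH17, of 4 colon markers, were below it in HT29. In B16, 5 libraries stood apart because their gene levels deviated from their group along transcript length (Spearman's rho beyond 0.4 in either direction): control IFNbIFNg replicates 2 and 3, null IFNbIFNg replicate 3, null IFNgTNFa replicate 1 and null TNFa replicate 1.

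The members' promoters were searched for short motifs, with the promoters of all genes for comparison. RefSeq start sites on GRCm38.p6 were matched for 28 of the 34 mouse members. Within 250 bases before the start, on either strand, the core of the antioxidant response element, TGACNNNGC, occurred in 5 of the 28 members (17.9%), against 11.5% of all 27025 genes in the table. The stretches that hold it are given 5′ to 3′ on the gene's strand with the match in capitals, because they are the members' only matches to the NFE2L1-type element in this window.
Psmd12: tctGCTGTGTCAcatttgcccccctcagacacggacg
Psmc6: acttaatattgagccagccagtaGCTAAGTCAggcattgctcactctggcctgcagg
Psmb6: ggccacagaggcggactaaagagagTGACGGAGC
Psmd9: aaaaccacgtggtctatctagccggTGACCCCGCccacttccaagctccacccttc
Psmb5: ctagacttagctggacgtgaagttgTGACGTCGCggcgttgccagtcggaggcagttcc
These lie at chr11:107479278-107479314, chr14:45329574-45329630, chr11:70525323-70525356 and chr5:123228134-123228189 on the plus strand, and chr14:54618009-54618067 on the minus strand. In Psmd12 and Psmc6 the match is on the opposite strand, 247 and 227 bases before the start; in Psmb6, Psmd9 and Psmb5 it is on the gene's own strand, 9, 31 and 47 bases before it. The core of the interferon-gamma activated site, TTCNNNGAA, occurred in 0 of the 28 members and in 8.13% of all genes; of the inducible genes Psmb8 held it, and Psmb9, Psmb10, Psme1 and Psme2 did not. The CCAAT box was in 11 of the 28 (39.3%, against 37.5% of all genes). A match is a string of letters, not a bound site.

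In untreated B16 cells the members differed widely in level per kilobase of transcript. Psmd8, a lid subunit also called Rpn12, was highest at 323 ± 5.59 CPM per kilobase (SD, n = 3), followed by Psma7 at 204 and Psmb4 at 188. Among the catalytic subunits Psmb6 stood at 133 ± 2.04, Psmb7 at 106 ± 3.60 and Psmb5 at 29.5 ± 4.40 CPM per kilobase. Psma7 and Psmb4 overlapped in their libraries, while Psmd8 was above every other member in each library. Psma3 was lowest at 1.98, below Psma5 at 9.21 and Psma2 at 13.8. The lengths used for Psma3 and Psma2 were 2846 and 2911 bases, against 914 to 1239 bases for the other alpha subunits. Their places in the order depend on that choice of transcript. Psma3 shares 24.8% of its 37-base words with transcripts of other genes, Psma5 62.6% and Psma2 6.61%. Across the order 7 members, Psmb5, Psmb3, Psma5, Psma4, Psmd2, Psmc1 and Psmb7, share over 30% (69.5% for Psmb5), and their median was 41.0 CPM per kilobase against 108 for the other 27. How the counting treated reads that fit several genes is not given in the sources used here.

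IFNg raised the constitutive subunits most broadly in HT29. There 30 of the 34 members rose and 1 fell, against 30.8% of all tested genes higher and 28.7% lower, with a member median log2 fold change of 0.51 against −0.00 over all genes. A gene counted as risen or fallen at an adjusted p under 0.05 in edgeR's quasi-likelihood test with Benjamini-Hochberg adjustment over all genes tested in the line; the same test is meant wherever an adjusted p is given. In all 34 members the control vehicle and IFNg libraries did not overlap, as in 79.3% of all tested genes. The summed level of the 34 genes went from 4330 ± 21.9 to 6510 ± 84.9 CPM (SD, n = 2 each), 150% of the vehicle level. In bulk RNA a change per cell and a change in the share of cells that respond cannot be told apart. IFNg replicate 1 of these controls carries a lung, not a colon, cell type label.

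The alpha ring led in HT29. All 7 alpha subunits rose, with a median of 0.97. PSMA4, which sits in the gate ring of the core, was at 257 and 270 CPM with vehicle and at 647 and 652 CPM with IFNg, a log2 change of 1.30 ± 0.04 (SE, adjusted p = 2.9e-36). PSMA6 went from 19.4 and 17.9 CPM to 50.2 and 40.5 CPM, a log2 change of 1.28 ± 0.11 (adjusted p = 1.11e-15). Both IFNg libraries of each gene lay above both vehicle libraries, at more than their own spread. The beta ring followed with a median of 0.61 and 7 of 7 risen, then the ATPases with 0.51 and 6 of 6, and the non-ATPase subunits with 0.35, 10 risen and 1 fallen. The member that fell was PSMD10 (gankyrin), an assembly chaperone of the 19S base and not a stable subunit of the finished particle: it was at 42.3 and 41.8 CPM with vehicle and at 29.9 and 28.1 CPM with IFNg, a log2 change of −0.54 ± 0.10 (adjusted p = 3.88e-06). PSMD5, another base chaperone, did not pass the test (0.09, adjusted p = 0.161), nor did PSMD6 (0.14, adjusted p = 0.121) and PSMD9 (−0.13, adjusted p = 0.29).

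In B16 control cells IFNg raised 16 members and lowered 1, against 20% of all tested genes higher and 17.9% lower, and the member median was 0.17 against 0.00. The alpha ring was again first, with 5 of 7 risen and a median of 0.38, then the beta ring with 3 of 7 and 0.20, the ATPases with 2 of 6 and 0.15, and the non-ATPase subunits with 6 of 14 and 0.13. The groups did not overlap for 23 of the 34 members, against 51% of all tested genes. The summed level was 4936 ± 95 CPM with vehicle and 5539 ± 133 CPM with IFNg (SD, n = 3 each), 112% of vehicle.

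The 4 largest rises in B16 were in Psma5, Psmb2, Psma2 and Psma4. Psma5 (chr3:108256926-108279974), an alpha-ring subunit, was at 12.2, 10.3 and 11.7 CPM with vehicle and at 23.9, 26.1 and 19.6 CPM with IFNg, a log2 change of 1.03 ± 0.14 (SE, adjusted p = 1.28e-08). Psmb2 (chr4:126677630-126709714), a non-catalytic beta subunit, was at 76.6, 76.6 and 87.0 CPM with vehicle and at 132, 135 and 144 CPM with IFNg (0.77 ± 0.09, adjusted p = 3.49e-09). Neither pair of groups overlapped. Psma2 (chr13:14613240-14674236) went from 37.9, 43.7 and 38.6 CPM to 56.4, 65.9 and 67.6 CPM (0.66 ± 0.10, adjusted p = 5e-07). Psma4 (chr9:54950790-54958030) went from 48.4, 46.8 and 48.2 CPM to 68.8, 72.1 and 65.0 CPM (0.52 ± 0.10, adjusted p = 3.95e-05). The coordinates are from the GENCODE annotation of the mouse build the submitters name, mm10, and of the 4 genes Psma5 and Psma4 are among those that share over 30% of their words. Psma6, one of the strongest members in HT29, did not pass the test in B16 (0.04, adjusted p = 0.649).

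**Figure D1:**
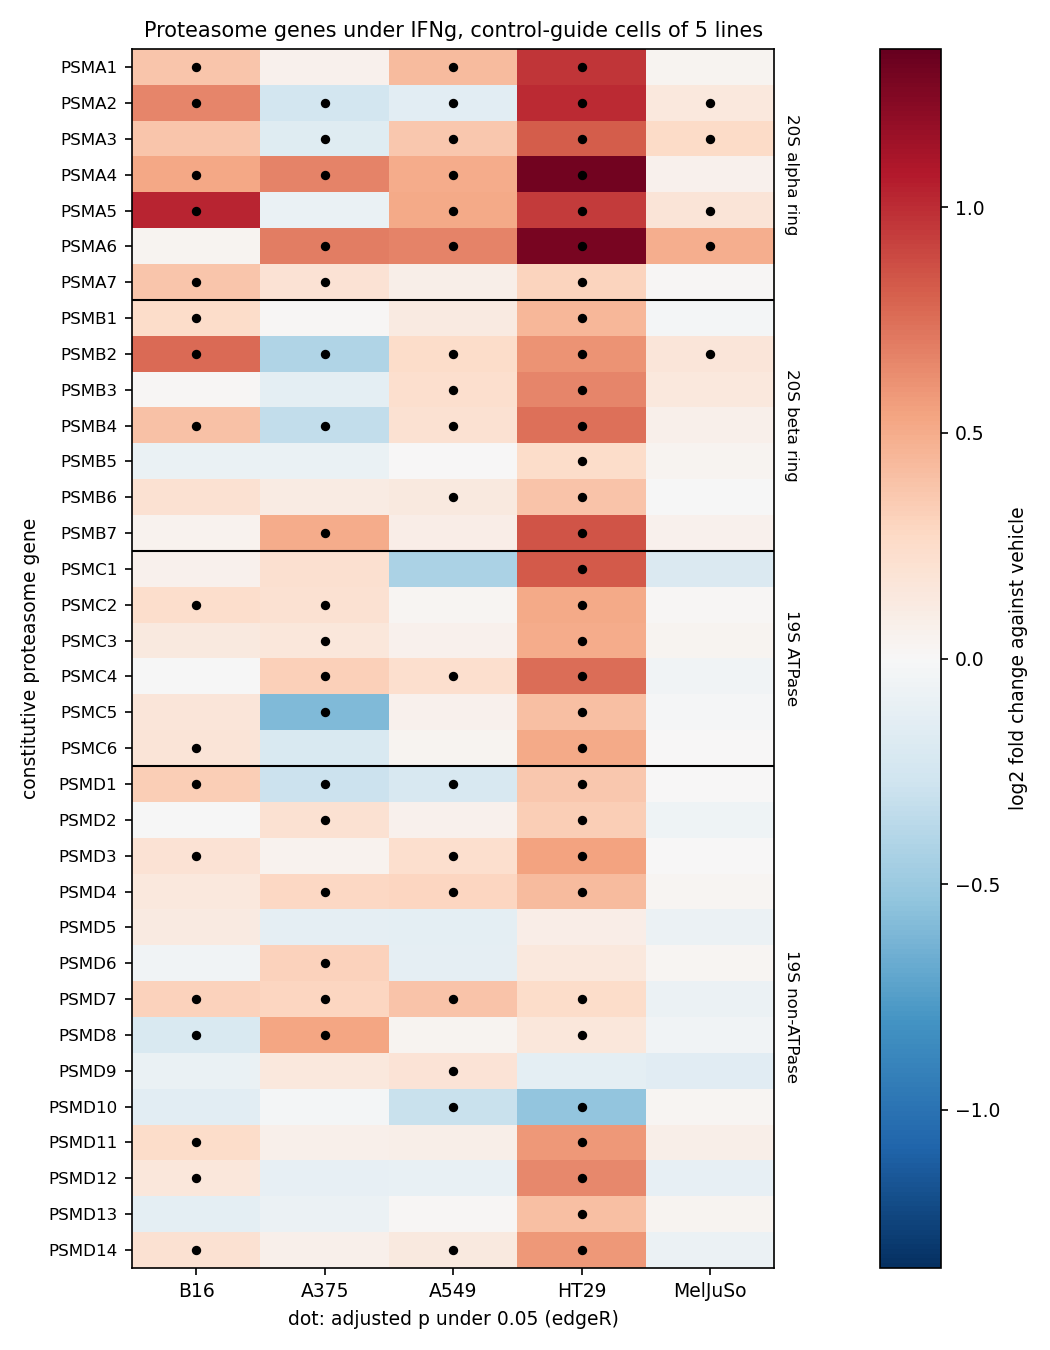
Heat map of the log2 fold change under IFNg against vehicle (colour bar) of the 34 constitutive subunits (rows, by subcomplex) in control cells of the 5 lines (columns), with a dot where the adjusted p was under 0.05. The HT29 column is red almost throughout, with 30 of 34 higher, MelJuSo is pale, with 5 higher, and A375 is mixed, from −0.60 to 0.69.

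A549 gave a smaller change with the same leading ring. IFNg raised 15 members and lowered 3 there, against 23.9% of all genes higher and 23.7% lower, and the median was 0.09 against −0.00. The alpha ring had a median of 0.43 with 5 of 7 risen and 1 fallen, while the other subcomplexes had medians of 0.13 (beta), 0.04 (ATPase) and 0.05 (non-ATPase). PSMA6 went from 29.9 and 31.4 CPM to 49.6 and 47.8 CPM (0.67 ± 0.10, adjusted p = 7.69e-11), PSMA5 rose by 0.52 ± 0.06 (adjusted p = 4.32e-15) and PSMA4 by 0.50 ± 0.04 (adjusted p = 6.37e-34). The members that fell were PSMD10 (−0.30 ± 0.06, adjusted p = 1.01e-05), PSMD1, the large scaffold of the base (−0.22 ± 0.04, adjusted p = 1.97e-06), and PSMA2 (−0.14). PSMA2 also fell in A375 as labelled (−0.25), and rose in B16, HT29 and MelJuSo.

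MelJuSo moved least: 5 members rose and 0 fell, against 6.32% of genes higher and 5.18% lower, and DESeq2 called 3. The member median was 0.02 and the background call rate was itself the lowest of the 5 lines. PSMA6 went from 22.7, 25.8 and 19.1 CPM to 35, 32.9 and 27.0 CPM, without overlap (0.49 ± 0.09, adjusted p = 4.61e-05). PSMA3 (0.26), PSMA5 (0.17), PSMB2 (0.16) and PSMA2 (0.14) were the others, so 4 of the 5 were alpha subunits. Without control IFNg replicate 3 or without control vehicle replicate 2 the count was 3.

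A375 went in both directions. With the libraries as labelled, 12 members rose and 6 fell, against 33% of all genes in each direction, and the median was 0.06. The alpha ring did not lead: its median was 0.06, with 3 of 7 risen and 2 fallen. The ATPases had a median of 0.18, the non-ATPase subunits 0.07 and the beta ring −0.09. PSMA6 (0.69 ± 0.11, adjusted p = 1.65e-09), PSMA4 (0.67 ± 0.04, adjusted p = 1.91e-38), PSMD8 (0.54 ± 0.05, adjusted p = 5.01e-21) and PSMB7 (0.50 ± 0.05, adjusted p = 4.64e-17) were higher. PSMC5, the ATPase Rpt6, was at 158 and 164 CPM in the vehicle libraries and at 105, 111 and 102 CPM with IFNg (−0.60 ± 0.05, adjusted p = 7.06e-24). PSMB2 (−0.40), PSMB4 (−0.34), PSMD1 (−0.29), PSMA2 (−0.25) and PSMA3 (−0.16) were also lower. The PTPN2 levels of the A375 vehicle libraries contradict their labels, so these directions are given for the libraries as labelled. Between the 2 vehicle groups the members differed by −0.14 to 0.18 on the log2 scale, with 1 called in each direction. A comparison of the control IFNg libraries with the vehicle libraries labelled null was not run.

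Across the lines the members did not move as 1 block. PSMA4, PSMA5, PSMA6, PSMB2 and PSMD7 rose in 4 of the 5 lines, 10 members rose in 3, 11 in 2 and 6 in 1, and none rose in all 5. PSMD5 and PSMD10 rose in none. PSMA4 missed only in MelJuSo (0.06) and PSMA6 only in B16, whereas PSMA5 (−0.09) and PSMB2 (−0.40) missed in A375, where PSMB2 fell. PSMD7, a lid subunit that pairs with the deubiquitinase PSMD14, rose by 0.25 to 0.39 in B16, A375, A549 and HT29 and stood at −0.08 in MelJuSo. As a description over the 34 members, Pearson's r between the log2 changes of 2 lines was highest for A549 with MelJuSo (0.56). It was 0.52 for A549 with HT29 and 0.51 for B16 with HT29. The only negative value was −0.31, for B16 with A375. A375 stood at 0.29 with A549, 0.18 with HT29 and 0.04 with MelJuSo. The remaining pairs lay between 0.32 and 0.50. Each line enters several of these pairs, so the values share libraries, and the members share 1 scaling within each line.

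None of the 3 constitutive catalytic subunits fell by the test under IFNg in any of the 5 lines, while their inducible counterparts rose. In B16, Psmb5 was at 22.1, 27.7 and 29.8 CPM with vehicle and at 23.4, 29.6 and 21.4 CPM with IFNg, a log2 difference of −0.09 ± 0.15 (adjusted p = 0.667). Psmb6 was at 104, 106 and 108 CPM against 117, 131 and 118 CPM (0.20 ± 0.08, adjusted p = 0.0505), and Psmb7 at 119, 123 and 128 CPM against 120, 131 and 133 CPM (0.05 ± 0.08, adjusted p = 0.656). Psmb5 and Psmb7 overlapped between the groups; Psmb6 did not overlap but missed the threshold. Psmb10 went from 14.4, 12.9 and 15.5 CPM to 377, 424 and 406 CPM (4.81 ± 0.12, adjusted p = 1.33e-30). Psmb8 had 0 counts in the 3 vehicle libraries and 2611 with IFNg, at least 831-fold higher against a floor of 3 counts over the vehicle group. Psmb9 had 1 count against 3624, a ratio of 3459 with an exact 95% interval for counting error of 620 to 1.37e+05. Per kilobase, Psmb10 reached 307 CPM with IFNg, Psmb9 157 and Psmb8 93.9. The subunits they can replace, Psmb7, Psmb6 and Psmb5, stood at 106, 133 and 29.5 with vehicle and 110, 153 and 27.6 with IFNg. Psmb6 ranged from 146 to 164 in its IFNg libraries, a range that holds the mean of Psmb9. Psmb5 and Psmb7 are among the uncertain members named above.

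In HT29 all 3 constitutive catalytic subunits rose beside the inducible ones. PSMB7 went from 62.9 and 63.9 CPM to 120 and 108 CPM (0.85 ± 0.07, adjusted p = 3.49e-16), and PSMB6 from 60.5 and 61.8 CPM to 80.7 and 78.9 CPM (0.38 ± 0.07, adjusted p = 1.05e-05). PSMB5 went from 73.0 and 79.5 CPM to 88.0 and 93.1 CPM (0.25 ± 0.07, adjusted p = 0.00221), a call that was lost without control vehicle replicate 1. PSMB8 went from 9.69 and 11.2 CPM to 225 and 222 CPM, PSMB9 from 0.797 and 1.33 CPM to 280 and 266 CPM, and PSMB10 from 23.2 and 23.8 CPM to 189 and 190 CPM. In the other human lines PSMB5 did not pass the test: it stood at 0.00 in A549, −0.09 in A375 and 0.04 in MelJuSo. PSMB6 passed in A549 (0.13, adjusted p = 0.027) and PSMB7 in A375 (0.50). PSMB8, PSMB9 and PSMB10 rose in every line, by 1.40 to 7.96 on the log2 scale in the human ones.

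**Figure D2:**
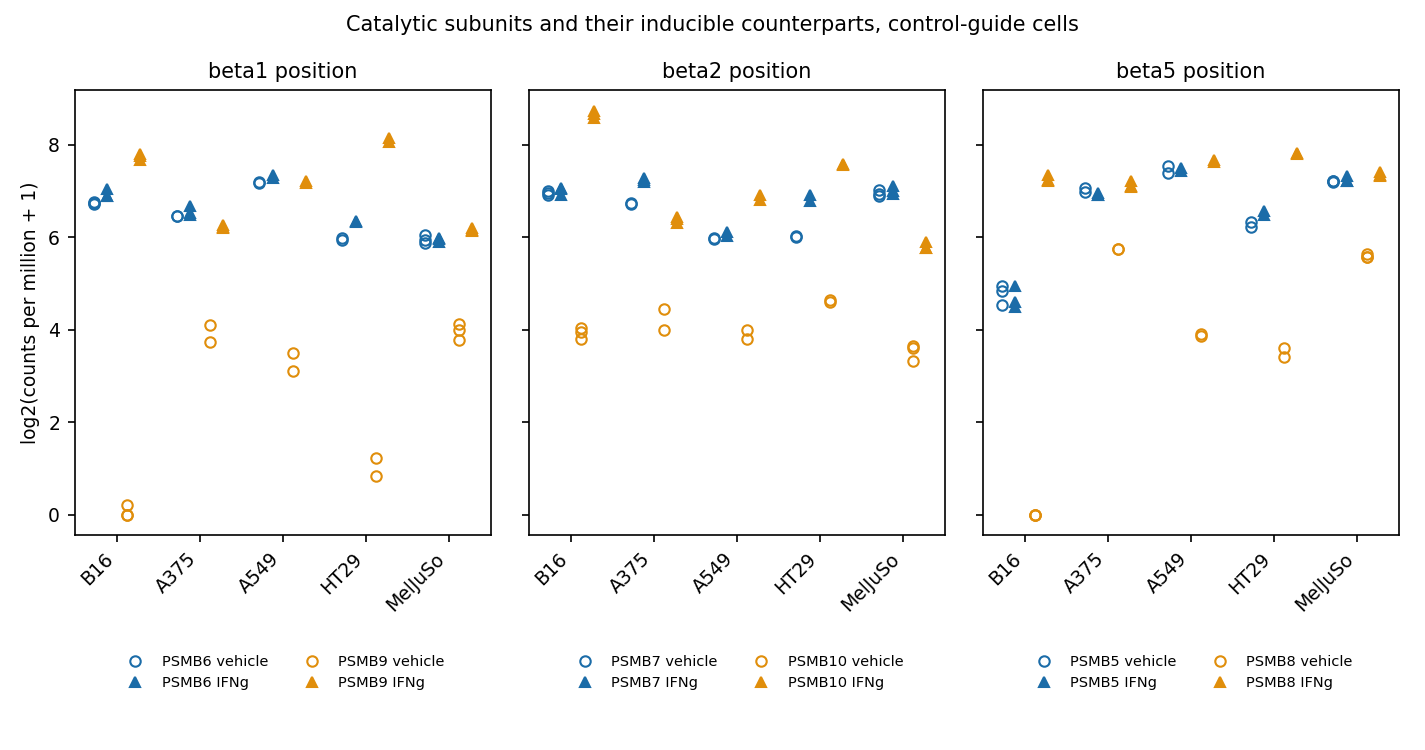
Level as log2(CPM + 1), 1 point per library (open circles for vehicle, filled triangles for IFNg), of each constitutive catalytic subunit and its inducible counterpart in control cells of the 5 lines with vehicle and with IFNg. The inducible subunits climb in every line, while among PSMB5, PSMB6 and PSMB7 the largest rises are those of PSMB7 in HT29, from 62.9 and 63.9 to 120 and 108 CPM (0.85 on the log2 scale), and in A375 as labelled (0.50).

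In B16 the other cytokines gave different patterns, and all of these comparisons share the 3 control vehicle libraries. IFNb lowered 8 members and raised 1 (13.5% of all genes lower, 17% higher), with a median of −0.13. TNFa raised 14 and lowered 1 (24.7% higher, 23% lower), with a median of 0.12. The groups did not overlap for 15 members under IFNb and 18 under TNFa, against 45.7% and 56.5% of all tested genes. IFNbTNFa lowered 12 and raised 1 (16.9% lower, 21.6% higher), with a median of −0.14. Without control vehicle replicate 3 the IFNb count was 4 members, without the 5 libraries that stood apart it was 15, and without control vehicle replicate 1 the TNFa count was 9.

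Under IFNb the members that fell furthest were Psmb3, a non-catalytic beta subunit (−0.57, adjusted p = 0.0131), Psmb5 (−0.48, adjusted p = 0.0158) and Psmd8 (−0.41 ± 0.05, adjusted p = 1.31e-09). Psmb5 was at 18.6, 21.3 and 17.6 CPM with IFNb, all below its vehicle libraries of 22.1 to 29.8 CPM. Psmb3 was at 12.8, 13.1 and 13.7 CPM against 19, 14.6 and 24.5 CPM. These falls in Psmb3 and Psmb5 rest on 2 of the genes that share most words with other transcripts. Psmc6, the ATPase Rpt4, was the 1 member that rose (0.22 ± 0.06, adjusted p = 0.0073), and it also rose with IFNbTNFa (0.28 ± 0.06, adjusted p = 0.000316). Psmb6 (−0.17, adjusted p = 0.13) and Psmb7 (−0.15, adjusted p = 0.135) did not pass under IFNb. Under IFNbTNFa, Psmd2, the second scaffold of the base, was at 299, 285 and 285 CPM against 362, 351 and 350 CPM with vehicle (−0.29 ± 0.05, adjusted p = 8.43e-06).

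Under TNFa the largest rises were in Psma5 (0.53 ± 0.15, adjusted p = 0.00306), Psma4 (0.53 ± 0.11, adjusted p = 5.28e-05), Psmd8 (0.48) and Psmc5 (0.39 ± 0.08, adjusted p = 7.96e-05). Of the catalytic subunits Psmb6 rose, from 104, 106 and 108 CPM to 138, 140 and 130 CPM (0.36 ± 0.08, adjusted p = 0.000484), a call that was lost once the length trend was removed. Psmb5 (0.08) and Psmb7 (0.06) did not pass.

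These IFNb and TNFa shifts moved with transcript length. The members are short: their median transcript was 1540.5 bases, against 3024.5 bases over all tested genes. Over all genes the log2 change ran with length at a Spearman's rho of 0.25 under IFNb and −0.47 under TNFa, but 0.06 under IFNg. With the length trend removed, the member median was 0.01 under IFNb (4 higher, 5 lower), −0.01 under TNFa (4 higher, 7 lower) and 0.00 under IFNbTNFa (2 higher, 7 lower). Under IFNg it was 0.18 (20 higher, 2 lower), and all 16 members that rose still passed in the same direction, against 4 of 14 under TNFa. The alpha-ring median under IFNg was 0.47 after removal, and Psma5 (1.09), Psmb2 (0.86), Psma2 (0.64) and Psma4 (0.59) stayed the highest. The falls of Psmb3 and Psmb5 under IFNb were lost. Whether the length trend comes from the RNA, the libraries or the treatment was not tested.

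**Figure D3:**
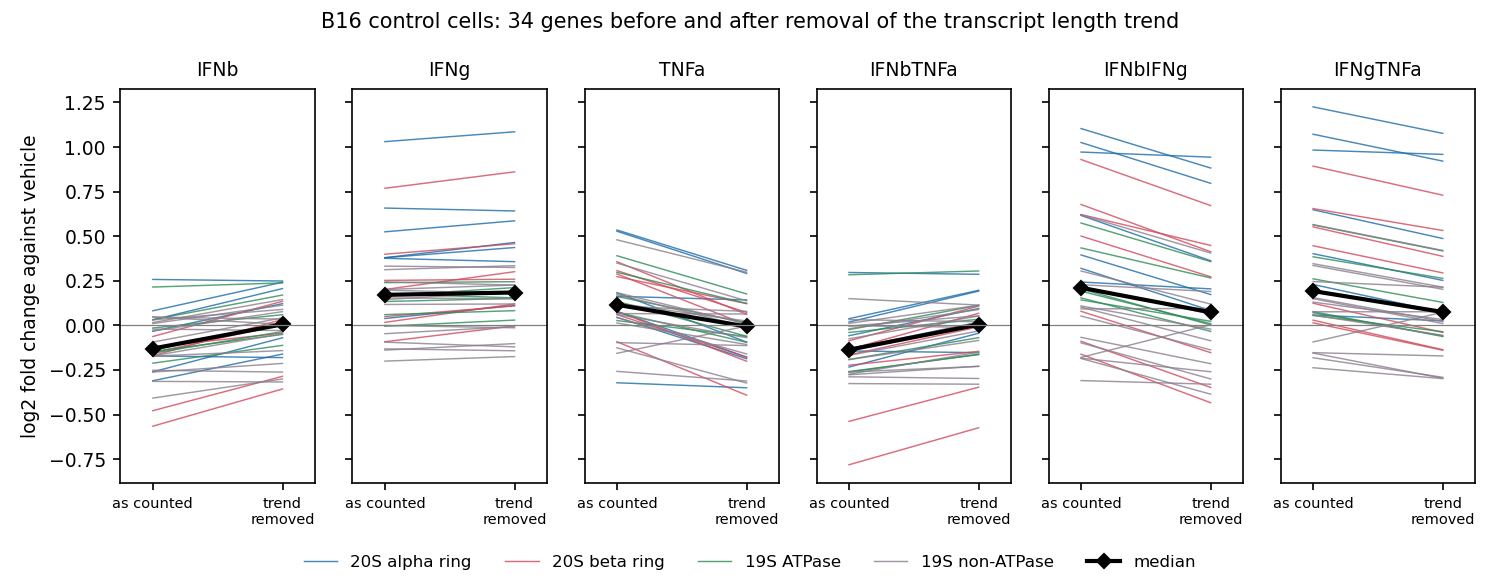
Log2 fold change against vehicle of the 34 members in B16 control cells as counted and with the transcript length trend removed, 1 line per gene coloured by subcomplex and a black line for the median, in 1 panel per cytokine treatment. The median goes from 0.12 to −0.01 under TNFa and from −0.13 to 0.01 under IFNb, and from 0.17 to 0.18 under IFNg.

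Psmd8 (chr7:29174188-29180701) differed between the cytokines. It was at 496, 490 and 507 CPM with vehicle, 363, 392 and 372 CPM with IFNb, and 424, 436 and 440 CPM with IFNg. With TNFa it was at 689, 706 and 688 CPM, and with IFNgTNFa at 610, 628 and 647 CPM. No library of these 5 groups overlapped with another of them. The other 2 groups did overlap: with IFNbIFNg it was at 521, 485 and 543 CPM, a range that holds the vehicle libraries and includes replicates 2 and 3, which stood apart by length, and with IFNbTNFa at 441, 427 and 440 CPM, overlapping with IFNg. The log2 change was −0.41 ± 0.05 with IFNb, −0.20 ± 0.05 with IFNg (adjusted p = 0.000534) and 0.48 ± 0.05 with TNFa (adjusted p = 8.39e-12). With the length trend removed it was −0.30, −0.17 and 0.30, each still past the threshold. Adding TNFa to IFNg raised Psmd8 by 0.54 ± 0.05 (adjusted p = 2.16e-14). It was the 1 member that fell under IFNg in B16, while PSMD8 rose by 0.16 in HT29 and by 0.54 in A375 as labelled.

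As counted, IFNg with a second cytokine gave the highest summed levels of the core rings among the B16 control groups. IFNgTNFa raised 19 members and lowered 4 (36% of genes higher, 33.3% lower), and IFNbIFNg raised 19 and lowered 2 (34.3% higher, 31.1% lower). The medians were 0.19 and 0.21. The groups did not overlap for 22 and 21 members, against 71.5% and 64% of all tested genes. After the length correction described above, IFNgTNFa left 15 higher and 5 lower, and IFNbIFNg 15 higher and 9 lower. The corrected alpha-ring medians were 0.49 and 0.36, against 0.47 for IFNg alone. Those of the beta ring were 0.29 and 0.27, against 0.26. As counted, under IFNgTNFa the alpha ring had a median of 0.65 and the beta ring 0.45. The ATPases had 0.17 and the non-ATPase subunits 0.10. Psma5 was at 26.7, 28.4 and 25.1 CPM (1.23 ± 0.14 against vehicle, adjusted p = 2.11e-11) and Psma4 at 102, 104 and 96.2 CPM (1.07 ± 0.10, adjusted p = 1.28e-13). Both were above all vehicle libraries, and Psma4 was above all libraries with IFNg alone. Psma2 rose by 0.98, Psmb2 by 0.89 and the catalytic Psmb6 by 0.55 ± 0.08 (adjusted p = 6.8e-08), from 104, 106 and 108 CPM to 143, 150 and 173 CPM. The alpha-ring sum was 150% of vehicle, and the non-ATPase sum 110%.

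Some Psmd members went the other way in the same cells. Psmd2 fell under IFNgTNFa (−0.15, adjusted p = 0.00674) and IFNbIFNg (−0.31, adjusted p = 7.63e-07), with Psmd9 (−0.24), Psmd13 (−0.18) and Psmd6 (−0.16) under the first and Psmd5 (−0.18, adjusted p = 0.0498) under the second. With the length trend removed the Psmd5 call was lost and its value was 0.0039; the others still passed. Psmd6 and Psmd5 also ran against the other members over the 14 B16 group means, at Pearson's r of −0.74 and −0.63 with the mean of the others, where Psma7 reached 0.99; this is a description of 14 means that share libraries' scaling.

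Set against IFNg alone, TNFa raised 11 members and lowered 3 (31.3% of genes higher, 30.2% lower), and IFNb raised 11 and lowered 3 (29.8% higher, 28.1% lower). Psma4 was among the highest in both, at 0.55 ± 0.09 with TNFa (adjusted p = 1.83e-06) and 0.50 ± 0.10 with IFNb (adjusted p = 1.69e-05). Psmd4, the ubiquitin receptor Rpn10, rose by 0.42 and 0.48. Psmd1 fell by 0.26 and 0.24 on the log2 scale. Both comparisons share the IFNg libraries, and both ran with length (rho −0.34 and −0.47): with the trend removed the counts were 6 higher and 13 lower for TNFa, and 5 higher and 14 lower for IFNb.

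**Figure D4:**
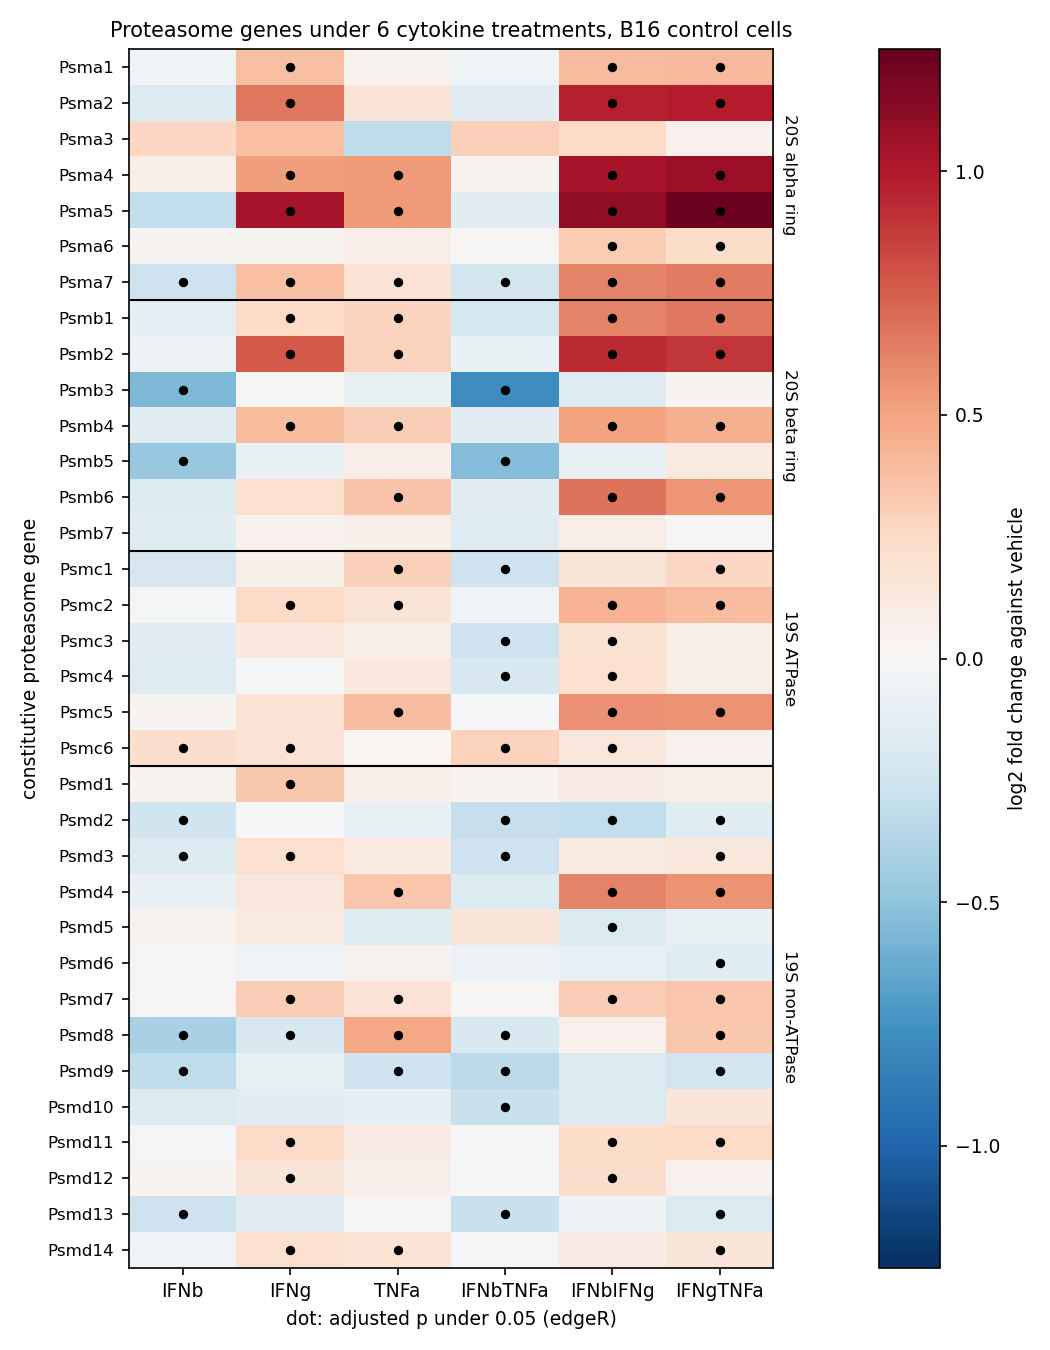
Heat map of the log2 fold change against vehicle (colour bar) of the 34 members (rows, by subcomplex) under each of the 6 cytokine treatments in B16 control cells (columns), with a dot where the adjusted p was under 0.05. The upper rows, the alpha ring, are strongest in the columns that hold IFNg, and Psmd8 is lower under IFNb and IFNg and higher under TNFa.

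Genes around the proteasome, from lists chosen with earlier results of these data known, were called in part under IFNg. For comparison, IFNg raised 20% and lowered 17.9% of all genes in B16, 30.8% and 28.7% in HT29, 33% each way in A375 as labelled, 23.9% and 23.7% in A549, and 6.32% and 5.18% in MelJuSo. Of the assembly factors and regulators, 5 of 13 rose and 1 fell in B16, 8 of 14 rose and 2 fell in HT29, 9 and 2 in A375, and 6 and 1 in A549. In MelJuSo edgeR called 0 of these 14, with 3 at an unadjusted p under 0.05. POMP, the maturation factor of the 20S core, rose by 0.56 ± 0.08 in B16 (Pomp, adjusted p = 2.05e-07) and by 1.2 ± 0.04 in HT29 (adjusted p = 1.65e-34). Psmf1, the inhibitor PI31, rose by 0.57 in B16. Of 9 genes around NFE2L1 and its processing, 3 rose and 0 fell in B16, 6 and 1 in HT29, 6 and 2 in A375, 4 and 1 in A549, and 1 and 1 in MelJuSo. NFE2L1 itself rose by 0.26 ± 0.05 in B16 (Nfe2l1, adjusted p = 8.47e-05), by 0.62 ± 0.04 in HT29 (adjusted p = 6.03e-20), by 0.98 in A375 as labelled and by 0.70 in A549, and it fell in MelJuSo (−0.17 ± 0.03, adjusted p = 7.61e-05). Under IFNgTNFa Nfe2l1 rose by 0.85 ± 0.05 (adjusted p = 1.91e-20). Of 6 ubiquitin genes, 3 rose and 0 fell in B16, 3 and 1 in HT29, 2 and 3 in A375, 4 and 1 in A549, and 1 and 0 in MelJuSo. All 5 immunoproteasome and activator genes rose under IFNg in each of the 5 lines.

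Between Ptpn2-null and control B16 cells, edgeR called 0 members with vehicle, IFNb, TNFa or IFNbTNFa, against 3.07%, 0.554%, 0.938% and 0.597% of all genes. At an unadjusted p under 0.05 the counts were 5, 1, 4 and 3, and DESeq2 called 0 in each. With IFNg, 5 members were higher in the null cells (17.7% of all genes higher, 17.2% lower), among them Psma4 (0.28, adjusted p = 0.0195) and Psma6 (0.18, adjusted p = 0.0139). That count was 2 without control IFNg replicate 1, null IFNg replicate 1 or null IFNg replicate 3, and 3 without control IFNg replicate 3 or null IFNg replicate 2. With IFNbIFNg, 3 were lower (19.2% in each direction); the count was 0 without null replicate 1, null replicate 2 or control replicate 3, 1 without control replicate 1, 7 without null replicate 3 and 8 without control replicate 2. After the length correction it was 4 in the higher direction and 0 in the lower.

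With IFNgTNFa, 12 members were higher in Ptpn2-null B16 cells and 1 was lower, against 20.3% of all genes higher and 20.8% lower. Of the 7 alpha subunits 6 were higher, with a median of 0.28, and the beta ring had a median of 0.18. Psma7, another alpha subunit, was at 271, 294 and 311 CPM in controls and at 407, 350 and 343 CPM in null cells (0.33 ± 0.07, adjusted p = 0.000169). Psma1 was at 191, 193 and 195 CPM against 246, 242 and 234 CPM (0.32 ± 0.06, adjusted p = 4.1e-06). Neither gene overlapped between genotypes. The summed level was 5963 ± 262 CPM in controls and 6603 ± 393 CPM in null cells (SD, n = 3 each). The count was 6 without null IFNgTNFa replicate 1, a library that stood apart by length, and 8 without control IFNgTNFa replicate 1.

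The change that IFNgTNFa brought also differed between genotypes for 13 members by the interaction term, 12 of them more positive in null cells, against 11% of all genes more positive and 15.3% more negative. They included Psma7 (0.44 ± 0.10, adjusted p = 0.00085), Psmb1 (0.42 ± 0.12, adjusted p = 0.0106), Psmd8 (0.36 ± 0.07, adjusted p = 2.82e-05) and the catalytic Psmb5 (0.54 ± 0.21, adjusted p = 0.0491), Psmb7 (0.35) and Psmb6 (0.34). Psmd8 was at 777, 719 and 730 CPM in null cells with IFNgTNFa, above the controls' 610 to 647 CPM, and at 462, 451 and 466 CPM with vehicle, below the controls' 490 to 507 CPM. Psmd5 was the 1 member more negative (−0.34, adjusted p = 0.0182). After the length correction 7 were more positive and 1 more negative. For IFNg alone the interaction was called for 1 member, Psmd8 (0.24), against 9.07% of genes more positive and 12.4% more negative. That count was 6 without control IFNg replicate 2, 4 without control vehicle replicate 2, 2 without control IFNg replicate 3, null IFNg replicate 1 or null IFNg replicate 2, and 11 without the 5 libraries that stood apart. For IFNb, TNFa and IFNbIFNg edgeR's interaction called 0 members (0.512%, 0.0341% and 15.4% of all genes), DESeq2 also 0, and 5, 0 and 2 had an unadjusted p under 0.05; for IFNbTNFa it called 1, Psmd8 (0.26), against 0.913% of all genes, and 0 in 8 of the 12 fits that left out 1 library.

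In HT29 and MelJuSo most of the members that differed were lower in the null libraries. In HT29, 18 members were lower and 0 higher with vehicle (8.66% of genes lower, 12.5% higher), and 20 lower and 2 higher with IFNg (20.5% lower, 21.3% higher), with a median of −0.15 in both. PSMC5 was at 165 and 153 CPM in controls with IFNg and at 137 and 129 CPM in null cells (−0.25 ± 0.06, adjusted p = 0.000197). PSMB7 went the other way, from 120 and 108 CPM to 138 and 127 CPM (0.22 ± 0.06, adjusted p = 0.00304), and its response to IFNg was larger in null cells by 0.40 ± 0.10 (adjusted p = 0.00158). The interaction was called for 1 other member, PSMD5 (−0.23, adjusted p = 0.0358), against 19.1% of all genes; with size factors in place of TMM scaling 3 were more positive and 0 more negative. DESeq2 called 9 members with vehicle and 7 with IFNg. The counts depended on single libraries: with vehicle 8 without control replicate 1 or 2 and 5 without null replicate 2, and with IFNg 12 without control replicate 1 and 13 without null replicate 2; the interaction count was 1 without control IFNg replicate 2, null IFNg replicate 1 or null vehicle replicate 1, and 5 without null IFNg replicate 2.

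In MelJuSo edgeR called 0 members with vehicle (1.64% of all genes; 2 at an unadjusted p under 0.05, and 0 with DESeq2), and with IFNg 18 were lower and 3 higher in null cells (25.7% of genes lower, 25.5% higher), with a median of −0.12. PSMD2 was at 349, 356 and 337 CPM in controls with IFNg and at 275, 274 and 273 CPM in null cells (−0.34 ± 0.04, adjusted p = 3.08e-14). Its vehicle libraries were at 369, 358 and 353 CPM in controls and 372, 364 and 365 CPM in null cells, so the null libraries with IFNg lay below all the others. PSMA4 was higher in null cells (0.17 ± 0.04, adjusted p = 0.000197). The interaction was called for 15 members, 13 more negative and 2 more positive (18.8% and 16.6% of all genes), PSMD2 among them at −0.36 ± 0.05 (adjusted p = 2.2e-09).

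In A549, 2 members were higher and 4 lower in null cells with IFNg (13% and 11.3% of all genes), and edgeR called 0 with vehicle (2.95%; 4 at an unadjusted p under 0.05, and 0 with DESeq2). PSMA4 was at 377 and 361 CPM in controls and at 455 and 435 CPM in null cells (0.27 ± 0.04, adjusted p = 9.2e-12), and its interaction was 0.26 ± 0.06 (adjusted p = 9.47e-05), 1 of 5 called against 11.3% of all genes. The IFNg count was 1 without control replicate 1, 2 without null replicate 1 and 3 without control or null replicate 2, and DESeq2 called 1. The interaction count was 2 without control IFNg replicate 2, null IFNg replicate 1 or null vehicle replicate 1, and 3 without control IFNg replicate 1, control vehicle replicate 2 or null vehicle replicate 2. In A375, whose IFNg libraries followed the PTPN2 labels, 7 members were higher and 13 lower with IFNg (25.8% and 25% of all genes). PSMA4 was at 329, 324 and 328 CPM in controls and at 434, 431 and 466 CPM in null cells (0.44 ± 0.03, adjusted p = 2.66e-30), while PSMD8 was lower by −0.39 ± 0.04 on the log2 scale (adjusted p = 1e-15). With vehicle, where PTPN2 contradicts the labels, 2 members passed, PSMD8 (0.18) and PSMB5 (−0.14), against 21.1% of all genes; that count was 0 without control replicate 3 and 1 without null replicate 1. The A375 interaction, called for 20 members against 47.1% of all genes, uses those vehicle libraries. PSMA4 was higher in null cells under IFNg in B16, A549, A375 and MelJuSo, and did not pass that test in HT29.

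**Figure D5:**
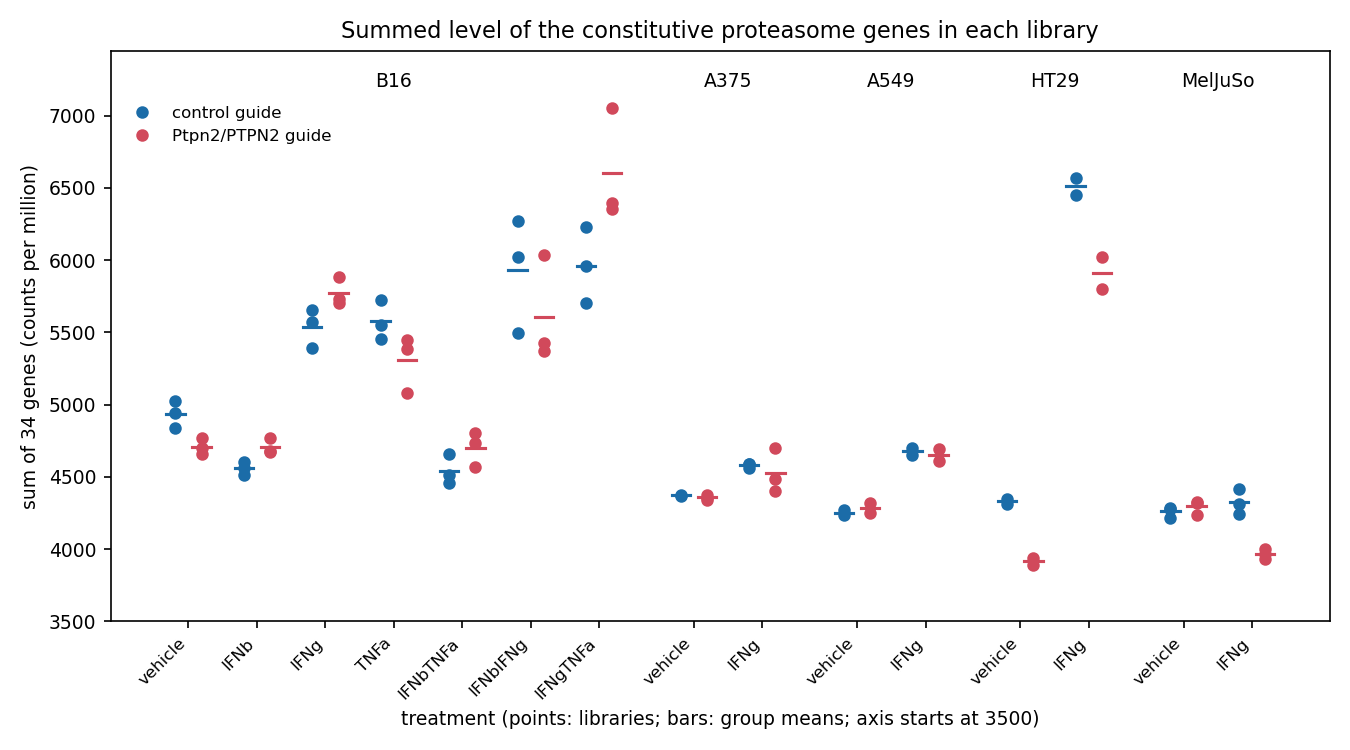
Summed level of the 34 members in CPM for every library (points) with group means (bars), by line, genotype (colour) and treatment; the axis starts at 3500 CPM. HT29 with IFNg stands highest among the human groups, at 6510 ± 84.9 CPM in controls and 5912 ± 160 CPM in null cells, and B16 null cells with IFNgTNFa reach 6603 ± 393 CPM.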

How the data were processed

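The authors deposited 1 table of raw counts per gene for each cell line, from paired-end reads of a directional poly(A) library kit per the labels. HTSeq 0.6.1p1, Bowtie2 2.2.4, DESeq2, Trimmomatic 0.33, bcl2fastq 2.17.1.14 and the builds mm10 and hg19 are listed, without roles, per the submitters' processing notes. The sources used here do not give the annotation, the strand setting or the handling of reads that fit several genes. No column belonged to a sample outside the series (0 columns), and no 2 libraries were identical.

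Counts were tested per line with edgeR 4.0.16 (R 4.3.3): filterByExpr by group, TMM scaling, 1 mean per group, robust quasi-likelihood F tests, and Benjamini-Hochberg adjustment over all genes tested (11726 for the mouse line, and 13410, 13172, 12555 and 12271 for A375, A549, HT29 and MelJuSo), with calls at an adjusted p under 0.05. CPM use TMM-scaled library sizes, and SE is the log2 change over the root of F. Transcript lengths are those of the longest principal transcript of GENCODE M21, or of the longest other transcript where none is marked as principal. Exact intervals at the 95% level and the floor of 3 counts cover counting error only. Alternatives were DESeq2 1.42.0, size factors, no filter, a replicate block, only the compared groups, an adjusted p under 0.01, a length trend removed as a smooth offset (mouse only), and leaving out each library; leaving out the 5 B16 libraries that stood apart was added after seeing the data. The test was checked on simulated counts. For IFNg in B16, the B16 IFNgTNFa interaction and IFNg in HT29 it recovered 94%, 76.1% and 84.7% of 2-fold changes. Of 1.2-fold changes it recovered 16.7%, 6.94% and 34.4%. These were 10 of 60, 5 of 72 and 22 of 64 genes, among 11726, 11726 and 12555 genes. The share recovered for the 34 members in the real counts was not tested. Genes were named by rule: the catalytic subunits and their inducible counterparts, up to 4 members per direction with the largest called change and no overlap between groups, up to 3 genes of each related list, and members holding TGACNNNGC; in addition Psmd8, PSMD9, PSMD5, PSMD6, Psmd4, PSMD7, Psma6 and PSMA2 were followed across comparisons after their values were seen. All lists ran in every comparison. The members and lists were chosen with earlier results of these data known.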

Additional observations from a re-analysis of the deposited data

Results flagged for a closer look

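Each result here is a member, or a count of members, whose change under a cytokine differed between the Ptpn2-null and the control cells by the interaction term of edgeR's quasi-likelihood test (Benjamini-Hochberg adjusted p under 0.05); values are null minus control on the log2 scale. In B16 with IFNg 1 member was called, Psmd8 (0.24), against 9.07% of all genes more positive and 12.4% more negative. With IFNbTNFa 1 was called, again Psmd8 (0.26), against 0.913% of all genes. With IFNgTNFa 13 were called, against 11% of all genes more positive and 15.3% more negative. They were led by Psmb5 (0.54), Psma7 (0.44), Psmb1 (0.42) and Psmd8 (0.36), with Psmd5 the other way (−0.34). Psmb5 shares 69.5% of its 37-base words with transcripts of other genes. Per kilobase it averaged 22.9 CPM in null and 29.5 CPM in control libraries with vehicle. With IFNgTNFa it averaged 36.4 CPM in null and 32.1 CPM in control libraries. The genotypes overlapped in both treatments, so its interaction value rests in part on the vehicle libraries. The IFNbTNFa count of 1 was 0 in 8 of the 12 fits that left out 1 library: control IFNbTNFa replicate 2 or 3, control vehicle replicate 1 or 3, null IFNbTNFa replicate 2 or 3, or null vehicle replicate 2 or 3.

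In A375, where the vehicle libraries go against their labels, 20 members were called, against 47.1% of all genes. PSMA4 (0.50), PSMA2 (0.47), PSMA5 (0.42) and PSMB4 (0.41) were more positive, and PSMD8 (−0.57), PSMD2 (−0.37), PSMD7 (−0.35) and PSMD4 (−0.33) more negative. In A549, 5 were called, against 11.3% of all genes: PSMA4 (0.26), PSMA3 (0.23), PSMD3 (−0.29), PSMD8 (−0.22) and PSMD2 (−0.19). In HT29, 2 were called, PSMB7 (0.40) and PSMD5 (−0.23), against 19.1% of all genes. In MelJuSo, 15 were called, against 16.6% of all genes more positive and 18.8% more negative. PSMD5 (0.34) and PSMA4 (0.23) were more positive, and PSMD13 (−0.40), PSMA5 (−0.37), PSMD2 (−0.36) and PSMD1 (−0.33) more negative. Psmd8 and PSMD8 thus went in opposite directions in B16 and in the 2 human lines A375 and A549; no test compared the lines.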

How the results depend on the processing

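Values here are counts of members called in either direction, of 34, in edgeR's quasi-likelihood test unless another tool is named. Counts not listed stayed within 1.5 times the main one. A total can hold while directions change. With the length trend removed this was so in B16 under IFNb and TNFa, and for TNFa or IFNb added to IFNg. It was also so for genotype with IFNbIFNg, and the directions are given above. The replicate numbers did not pair the libraries: in no comparison was every pair's correlation over 0.1. With the replicate number as a block, the A375 genotype count with vehicle was 1 and every other count moved by less than 1.5 times.

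At an adjusted p under 0.01 the counts were 5 for IFNb, 8 for TNFa, 8 for IFNbTNFa, 0 for genotype with IFNg, 7 for genotype with IFNgTNFa, 0 for the IFNbTNFa interaction and 5 for the IFNgTNFa interaction in B16; 1 for A375 genotype with vehicle; 2 for A549 genotype with IFNg and 2 for its interaction; 9 and 14 for HT29 genotype with vehicle and IFNg and 1 for its interaction; and 3 for MelJuSo IFNg. DESeq2 gave 2 for the B16 IFNg interaction, 1 for A375 genotype with vehicle, 1 and 2 for A549 genotype with IFNg and its interaction, 9, 7 and 1 for HT29 genotype with vehicle, with IFNg and its interaction, and 3 for MelJuSo IFNg. Size factors gave 4 for the B16 IFNg interaction. No filter gave 2 for B16 genotype with IFNg, 3 for the IFNg interaction and 1 for A375 genotype with vehicle.

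Fitting only the compared groups gave, in B16, 16 for IFNb, 6, 8, 0 and 5 for genotype with vehicle, IFNg, IFNbIFNg and IFNgTNFa, and 2, 12 and 2 for the IFNb, IFNg and IFNbTNFa interactions, and 4 for A375 genotype with vehicle. Without the 5 libraries that stood apart, which leaves 1 control IFNbIFNg library assumed to vary like the others, the counts were 15 for IFNb, 2, 9 and 1 for genotype with vehicle, IFNbIFNg and IFNbTNFa, and 1, 11, 3 and 2 for the IFNb, IFNg, IFNbIFNg and IFNbTNFa interactions. With the length trend removed they were 9 for genotype with IFNg and 2, 2, 0 and 8 for the IFNg, IFNbIFNg, IFNbTNFa and IFNgTNFa interactions. The same setting reversed Psmb7 under TNFa (−0.18), IFNbIFNg (−0.15) and IFNgTNFa (−0.14), Psmd5 under IFNbIFNg (0.0039), and Psmb5 (−0.35), Psmb7 (−0.26) and Psmb9 (−0.045) when IFNb was added to IFNg. Removing the trend was not run for the human lines, for lack of transcript lengths here. The cause of each of these changes was not tested.

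Leaving out single libraries gave, in B16, 4 to 11 for IFNb, 9 to 14 for TNFa, 2 to 4 for genotype with IFNg, 0 to 8 with IFNbIFNg and 6 to 14 with IFNgTNFa, and 1 to 6, 0 to 1 and 0 to 1 for the IFNg, IFNbIFNg and IFNbTNFa interactions. The human ranges were 0 to 3 for A375 genotype with vehicle, 1 to 3 and 2 to 4 for A549 genotype with IFNg and its interaction, 5 to 14, 12 to 20 and 1 to 5 for HT29 genotype with vehicle, with IFNg and its interaction, and 3 to 4 for MelJuSo IFNg. Depth was low for Psma3 in B16, with 16 to 57 counts per library, and for PSMC1 in HT29 (25 to 44) and MelJuSo (18 to 39).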
